A study of Sus scrofa with 32 samples.

Results

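Hydroxysteroid dehydrogenases of the HSD17B and HSD11B families, HSD17B3 and HSD17B7 left aside, were followed in the testis transcriptome of 32 crossbred boars. The genes were chosen by name: HSD17B2, HSD17B4, HSD17B6, HSD17B8, HSD17B11, HSD11B1 and HSD11B2. Of these 7 genes, 6 had an identifier among the 25322 gene identifiers counted, of which 11804 carried a symbol. HSD17B2 (ENSSSCG00000038221) was not analysed here. The 6 measured genes were HSD17B4 (ENSSSCG00000028431), HSD17B6 (ENSSSCG00000027854), HSD17B8 (ENSSSCG00000001476), HSD17B11 (ENSSSCG00000009225), HSD11B1 (ENSSSCG00000015616) and HSD11B2 (ENSSSCG00000002777), and all 6 passed the filter on low counts in every fit.

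The boars came from a Danish cross of Duroc with Landrace/Yorkshire, weighed about 100 kg at slaughter, and carry labels for their androstenone and skatole (AS) group and for their diet. High AS boars numbered 7 on chicory, given as a 15% additive 3 days before slaughter, and 10 on the control diet. Low AS boars numbered 7 on each diet, and 1 further boar on chicory has no AS label. Androstenone, a pheromone steroid of the boar testis and a source of boar taint, averaged 2.59 ± 1.99 mg/kg (SD, n = 17, 0.67 to 7.77) in High AS boars and 0.54 ± 0.405 mg/kg (SD, n = 14, 0 to 1.07) in Low AS boars. The series was built to map inherited expression differences linked to androstenone, and its labels add each boar's sow and its sire's androstenone breeding value.

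Hydroxysteroid dehydrogenases set the activity of steroid hormones by moving hydrogen on or off single positions of the steroid. The 17-beta enzymes act on androgens and estrogens, although several of them also serve fatty acid or retinoid metabolism, and the 11-beta pair converts cortisone to cortisol and back. In the testis HSD17B3 makes testosterone in Leydig cells, while the remaining members are described mainly from other tissues and, for the roles given below, mostly from human enzymes.

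Library names came in 2 forms, with or without a running number. Depth in genes was 1855174 to 5993637 reads for the 24 plain names and 10585625 to 20349500 reads for the 8 numbered names. High AS boars gave 6 numbered libraries and Low AS boars 2, so each fit held the library set as a term and correlations were taken within a set. The 4 libraries of lane 7 were all numbered and all from High AS boars. Lane was not a term of the fits, and an alternative left these libraries out. Both testis markers were present in all libraries: INSL3 had 67.8 to 2630 CPM (read counts scaled to the size of each library) and PRM1 674 to 26100 CPM. The 674 CPM belonged to Low AS chicory replicate 1, against 4380 CPM or more in all other libraries, and results that rest on that library are also given without it. A testis with fewer cells of a type and one with less RNA per cell cannot be told apart in these bulk libraries.

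HSD17B4 is the peroxisomal bifunctional enzyme that shortens very long and branched fatty acids and oxidizes estradiol. It averaged 73.1 CPM ± 30.8 in High AS pigs (SD, n = 17; lowest 29.9, median 69.0, highest 134) and 78.2 CPM ± 37.1 in Low AS pigs (SD, n = 14; lowest 38.1, median 71.7, highest 190). The groups overlapped over nearly their whole range. HSD17B4 was lower in numbered than in plain libraries, at a mean of 46.8 CPM (n = 8, 29.9 to 89.1) against 84.8 CPM (n = 24, 53.7 to 190). HSD17B8, a mitochondrial enzyme that forms the ketoacyl reductase of mitochondrial fatty acid synthesis together with CBR4, was the steadiest member. It had 31.8 CPM ± 8.79 in High AS pigs (lowest 22.5, median 29.9, highest 51.3) and 33.4 CPM ± 9.19 in Low AS pigs (lowest 19.6, median 33.1, highest 47.9), a span of 2.62-fold over all 32 pigs.

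HSD17B6 oxidizes 3-alpha-androstanediol back to dihydrotestosterone in the human prostate. It had 9.0 CPM ± 6.44 in High AS pigs (lowest 2.21, median 6.88, highest 26.6) and 11.1 CPM ± 5.83 in Low AS pigs (lowest 2.26, median 9.81, highest 20.1). The groups overlapped, and the highest pig had 12 times the level of the lowest. HSD17B11, a lipid droplet enzyme that oxidizes androstanediol in human cells, had 15.7 CPM ± 5.98 in High AS pigs (lowest 8.56, median 14.2, highest 32.7) and 11.3 CPM ± 5.17 in Low AS pigs (lowest 1.44, median 10.9, highest 21.6). Its lowest value was 3 reads in Low AS chicory replicate 1, and the next lowest pig of all 32 had 6.06 CPM.

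HSD11B1, which regenerates cortisol from cortisone, had 14.1 CPM ± 4.05 in High AS pigs (lowest 8.69, median 13.4, highest 25.7) and 13.1 CPM ± 3.48 in Low AS pigs (lowest 7.81, median 12.8, highest 17.9). HSD11B2, which inactivates cortisol to cortisone, had 18.9 CPM ± 15.9 in High AS pigs (lowest 6.39, median 10.9, highest 56.9) and 22.7 CPM ± 14.7 in Low AS pigs (lowest 4.5, median 14.4, highest 48.4). Both genes overlapped between the groups. The ratio of HSD11B1 to HSD11B2 had a median of 1.06 in High AS pigs (0.275 to 3.54) and 0.727 in Low AS pigs (0.219 to 3.0). It moved with the library set, with medians of 1.52 in numbered and 0.753 in plain libraries. Within plain libraries the medians were 0.736 in High AS pigs (n = 11) and 0.727 in Low AS pigs (n = 12). CPM values of different genes are not ranked against each other because transcript lengths were not used here.

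**Figure D1:**
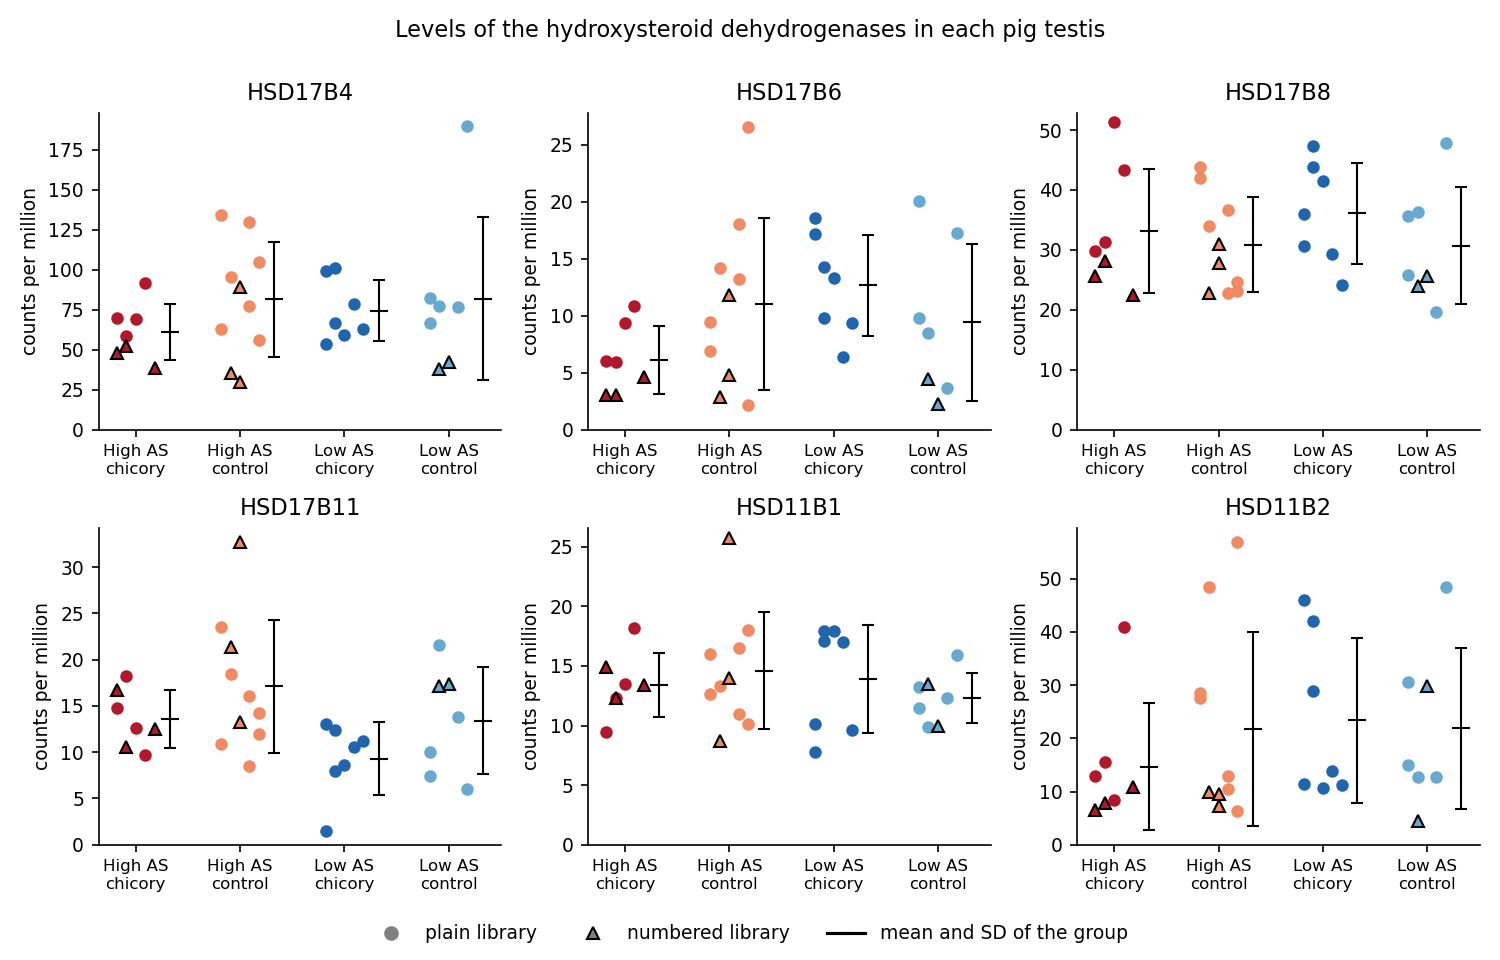
Level of each member in CPM (linear axis from 0), one point per pig, by AS group and diet; circles are plain libraries, triangles numbered libraries, bars the group mean and SD. The groups overlap for all 6 genes, HSD11B2 falls into a low and a high band, and 1 pig of the Low AS control group stands at 190 CPM of HSD17B4.

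The members differed in how much they varied between pigs. With each library set centred on its mean, the SD of log2 CPM was 0.87 for HSD11B2, larger than in 98.8% of the 500 genes nearest in level. HSD17B6 followed at 0.75 (92.2% of its 500 neighbours) and HSD17B11 at 0.68 (91.6%). HSD17B4 had 0.44 (76.4%), HSD11B1 0.38 (30%) and HSD17B8 0.34 (42.2%), so the last 2 varied less than most genes of like level. HSD11B2 values also fell into 2 bands, chosen after the values were seen: 21 pigs had 15.5 CPM or less and 11 had 27.5 CPM or more, with none between. That gap was 0.83 on the log2 scale, against 0.12 to 0.31 for the widest gap of each other member away from both ends of its range. Gaps that set off only the few lowest or highest pigs were not counted, such as that of HSD17B11 from 1.44 to 6.06 CPM. The high band held 5 High AS and 6 Low AS pigs, and 10 of its 11 libraries were plain. The low band held 12 High AS pigs, 8 Low AS pigs and the pig without an AS label.

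None of the 6 genes passed the test between High and Low AS testes. HSD17B11 had the largest estimate, a log2 fold of 0.34 (SE 0.20, interval −0.06 to 0.73, p = 0.102 and adjusted p = 0.988 by edgeR's quasi-likelihood test), with 0.41 (SE 0.24) in plain and 0.36 (SE 0.38) in numbered libraries. Leaving out its lowest and highest libraries, those of High AS control replicate 3 and Low AS chicory replicate 1, gave HSD17B11 a log2 fold of 0.22 (SE 0.17). Estimates were also above 0 for 8 of 8 round spermatid markers (median 0.10), 10 of 10 elongating spermatid markers (median 0.22) and 7 of 9 Leydig cell markers (median 0.42), none of them called, and their part in the HSD17B11 value was not tested. The mean log2 CPM of the round spermatid list was 7.64 to 9.11 in High AS pigs and 6.81 to 9.02 in Low AS pigs, and that of the Leydig list 4.86 to 6.81 in High AS pigs and 4.27 to 7.17 in Low AS pigs. HSD11B2 was at −0.21 (SE 0.31), with −0.03 in plain and −0.93 in numbered libraries. Intervals were narrowest for HSD17B8, at 0.01 (SE 0.13, interval −0.24 to 0.27), and HSD11B1, at 0.10 (SE 0.16, interval −0.21 to 0.41). HSD17B4 was at 0.06 (SE 0.17) and HSD17B6 at −0.06 (SE 0.29). The count of 0 of 6 members stands beside 0% of the 13025 genes tested, and unadjusted p was under 0.05 for 0 of 6 members in edgeR, DESeq2 and limma voom, against 2.3% of all genes in edgeR.

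No member followed the androstenone concentration past the threshold either. The slope, in log2 units for each doubling of (mg/kg + 0.5), was −0.29 for HSD11B2 (SE 0.17, interval −0.64 to 0.05, p = 0.102, edgeR adjusted p = 0.852) and −0.21 for HSD17B6 (SE 0.14, interval −0.48 to 0.05, p = 0.127, adjusted p = 0.852). The remaining slopes lay between −0.05 (HSD17B4, SE 0.09) and 0.08 (HSD17B11, SE 0.10), with HSD17B8 at 0.02 (SE 0.06) and HSD11B1 at 0.05 (SE 0.08). Of 13199 genes 0.0227% passed, and 0 of 6 members did. Members with an unadjusted p under 0.05 numbered 0 in edgeR, 1 in DESeq2 and 0 in limma voom, against 5.06% of all genes in edgeR.

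Levels in the pigs at both ends of the androstenone range are given as a description. In the 5 pigs with the most androstenone (3.75 to 7.77 mg/kg) HSD11B2 was 6.39 to 9.91 CPM, against 11.4 to 42.1 CPM in the 5 with the least (0 to 0.49 mg/kg), and the values did not overlap. Of 14458 genes 4.6% were likewise lower without overlap and 3.5% higher, and the ends were chosen after the values were seen. Numbered libraries made up 3 of the 5 pigs with the most androstenone and 0 of the 5 with the least, and their part in the difference was not tested. HSD17B6 was 2.21 to 11.8 CPM in the 5 pigs with the most androstenone (median 3.07) and 8.49 to 20.1 CPM in the 5 with the least (median 14.3). HSD17B4 was 29.9 to 69.0 CPM in the 5 pigs with the most androstenone (median 52.2) and 66.9 to 101 CPM in the 5 with the least (median 82.3). In plain libraries alone the slope of HSD17B6 was −0.36 (SE 0.14, p = 0.0167, adjusted p = 0.897) and that of HSD11B2 −0.24 (SE 0.21). In the 8 numbered libraries HSD17B6 had a slope of 0.34 (SE 0.28), opposite in sign, and HSD11B2 −0.40 (SE 0.26).

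None of the 6 members passed the test for diet. HSD17B11 had 11.5 CPM ± 4.07 on chicory (SD, n = 14; lowest 1.44, median 11.8, highest 18.2) and 15.6 CPM ± 6.71 on control diet (SD, n = 17; lowest 6.06, median 14.2, highest 32.7). The log2 fold was −0.36 (SE 0.20, p = 0.0797, edgeR adjusted p = 1), with −0.21 in plain and −0.75 in numbered libraries. HSD17B4 had 67.9 CPM ± 18.9 on chicory (lowest 38.9, median 64.9, highest 101) and 81.6 CPM ± 41.1 on control diet (lowest 29.9, median 77.1, highest 190), a log2 fold of −0.28 (SE 0.16, p = 0.0915). It was −0.40 (SE 0.18, p = 0.0385) in plain libraries, and −0.16 in all libraries without Low AS control replicate 5, the pig at 190 CPM.

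The other 4 genes had diet log2 folds of −0.33 (HSD11B2, SE 0.31), −0.28 (HSD17B6, SE 0.27), 0.02 (HSD11B1, SE 0.15) and 0.13 (HSD17B8, SE 0.13). With sow as a block the direction turned for HSD11B2 (0.21, SE 0.22) and HSD17B6 (0.26, SE 0.24). In that fit HSD17B11 was at −0.60 (SE 0.25, p = 0.0265, adjusted p = 0.65), the 1 member at an unadjusted p under 0.05, where 6.38% of genes were. Of 13025 genes 0.00768% passed and 0 of 6 members did, with no member under an unadjusted p of 0.05 in edgeR, DESeq2 or limma voom, against 0.875% of all genes in edgeR. Diet estimates were below 0 for 9 of 9 Leydig cell markers (median −0.25) and 6 of 6 endothelial markers (median −0.32). The 2 spermatid lists differed, with 7 of 8 round spermatid markers below 0 (median −0.09) and 10 of 10 elongating spermatid markers above 0 (median 0.11). Above 0 were also 6 of 7 peritubular and smooth muscle markers (median 0.09) and 4 of 5 spermatogonia markers (median 0.13). None of these markers was called, and their part in the members' values was not tested. NR3C1, the glucocorticoid receptor through which cortisol acts, had the smallest p of the glucocorticoid list at −0.34 (SE 0.15, p = 0.0328, adjusted p = 1).

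**Figure D2:**
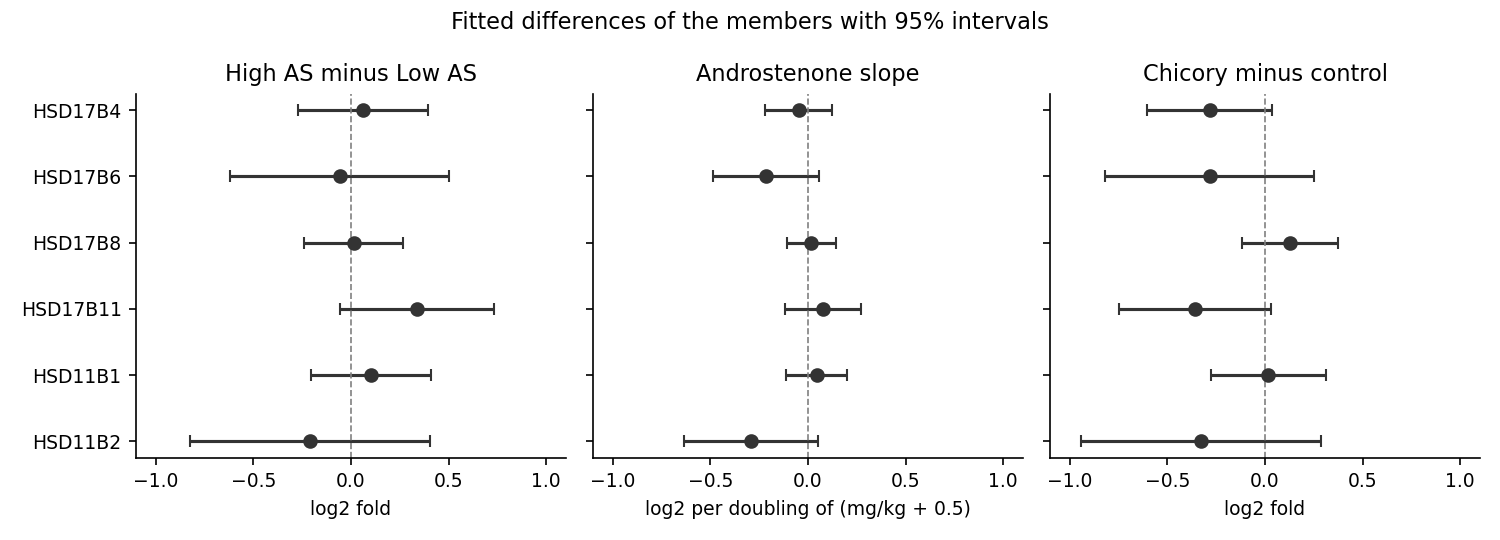
Fitted effects of the 6 members with 95% intervals: the log2 fold of High AS over Low AS, the log2 slope per doubling of androstenone plus 0.5 mg/kg, and the log2 fold of chicory over control diet. Each interval crosses 0, and those of HSD11B2 and HSD17B6 are the widest for AS and diet.

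The effect of AS was also compared between the diets. HSD17B6 had the smallest p of the members, with 6.14 CPM ± 3.0 in High AS chicory pigs (n = 7, 3.07 to 10.9), 11.0 CPM ± 7.54 in High AS control pigs (n = 10, 2.21 to 26.6), 12.7 CPM ± 4.43 in Low AS chicory pigs (n = 7, 6.39 to 18.6) and 9.44 CPM ± 6.9 in Low AS control pigs (n = 7, 2.26 to 20.1). These group means are not adjusted for library set. HSD17B6 averaged 4.61 CPM in numbered libraries (n = 8) and 11.7 CPM in plain ones (n = 24). Low AS chicory pigs had plain libraries only, while the other 3 groups had both kinds. With library set in the fit, the AS log2 fold of HSD17B6 was −0.62 (SE 0.42) on chicory and 0.34 (SE 0.35) on control diet. Its diet log2 fold was −0.73 (SE 0.36, p = 0.053) in High AS pigs and 0.23 (SE 0.39) in Low AS pigs. The difference of −0.96 (SE 0.54, p = 0.0828, edgeR adjusted p = 0.951) did not pass, with 0% of 13025 genes called and 3.63% at an unadjusted p under 0.05. Within single diets and single AS groups 0 of 6 members and 0% of genes were called, with no member at an unadjusted p under 0.05. The share of all genes under that p was 6.22% for AS on chicory, 1.27% for AS on control diet, 1.44% for diet in High AS pigs and 2.65% for diet in Low AS pigs. The HSD17B6 difference was −0.78 (SE 0.63) in plain libraries and −0.52 (SE 0.54) once both libraries with extreme HSD17B11 were left out. Estimates for HSD17B3 (−0.88, SE 0.39, p = 0.0297) and for the 11 Sertoli cell markers tested (median −0.51, 2 of 11 above 0) had the same sign, and their part in the HSD17B6 value was not tested.

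Sire breeding value for androstenone gave the smallest p for HSD17B4, with a log2 slope of −0.76 per unit (SE 0.28, n = 32 pigs, p = 0.0106, edgeR adjusted p = 0.383). HSD17B6 had −0.94 (SE 0.49, p = 0.0611). Pigs of 1 sow mostly share this value: of 10 sows with more than 1 pig, 9 had a single value. The fit thus counts related pigs as independent, and its p-values are too small. In plain libraries the slopes were −0.58 (SE 0.33) for HSD17B4 and −1.39 (SE 0.52) for HSD17B6. No member passed, where 0.0154% of 13009 genes did. At an unadjusted p under 0.05 there was 1 of 6 members and 10.3% of genes. Elongating spermatid markers had higher estimates with the breeding value in 10 of 10 genes, and whether this moved the members was not tested. Against carcass weight 0 of 6 members and 0% of 13413 genes passed by edgeR, with 0 members and 1.41% of genes at an unadjusted p under 0.05.

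HSD11B2 had the widest span of sow medians and the smallest p for sow among the members. Among the 6 sows with 3 or more pigs, the pigs of sow 930 had 48.4 CPM (High AS control), 46.0 CPM (Low AS chicory) and 48.4 CPM (Low AS control). Those of sow 1139 had 28.6 CPM (High AS control), 42.1 CPM (Low AS chicory) and 29.8 CPM (Low AS control). These 2 families lay wholly in the high band, over both AS groups and both diets.

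Pigs of sow 641 had 7.77 CPM (High AS chicory), 6.39 CPM (High AS control) and 13.9 CPM (Low AS chicory). Those of sow 1014 had 9.53 CPM (High AS control) and 11.2 and 11.4 CPM (Low AS chicory). Both families lay wholly in the low band. Sow 931 had pigs in both bands, with 40.9 CPM (High AS chicory), 27.5 CPM (High AS control) and 12.7 CPM (Low AS control). Of the 5 pigs of sow 210, those at 8.4 and 10.9 CPM (High AS chicory), 7.27 CPM (High AS control) and 10.6 CPM (Low AS chicory) were low and the 1 at 30.5 CPM (Low AS control) was high.

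The sow medians of HSD11B2 spanned 6.23-fold, from 7.77 to 48.4 CPM, while the highest and lowest pig of 1 sow differed by 1.05-fold to 4.19-fold. These CPM are not adjusted for library set, and HSD11B2 averaged 10.8 CPM in numbered and 23.7 CPM in plain libraries. The pig at 7.77 CPM had a numbered library, and the other pigs of sow 641, at 6.39 and 13.9 CPM, had plain ones. Pigs of sow 930 had plain libraries only. A test over all sows gave F = 5.57 (p = 0.000203, edgeR adjusted p = 0.0715, n = 31 pigs) and missed the threshold that 0.166% of 14475 genes passed. At an unadjusted p under 0.05 there were 2 of 6 members and 13.7% of genes. It passed in limma voom (adjusted p = 0.0226) and without the library set term (adjusted p = 0.0339), and in plain libraries alone it had p = 0.0063 (adjusted p = 0.29). HSD17B6 had p = 0.012 (adjusted p = 0.264) and sow medians of 3.07 to 17.2 CPM, where the 3.07 CPM came from the numbered library of sow 641. The other 4 members had adjusted p between 0.622 and 0.859. The Leydig marker level, a mean of log2 CPM, was 5.91 to 7.17 in the pigs of sow 930 and 5.52 to 6.30 in those of sow 1139, both in the high band. It was 5.57 to 5.83 in the pigs of sow 641 and 4.56 to 6.29 in those of sow 1014, both in the low band. These ranges overlap between the bands, and their part in the sow differences was not tested. Shared inheritance, litter and rearing cannot be told apart in these families.

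**Figure D3:**
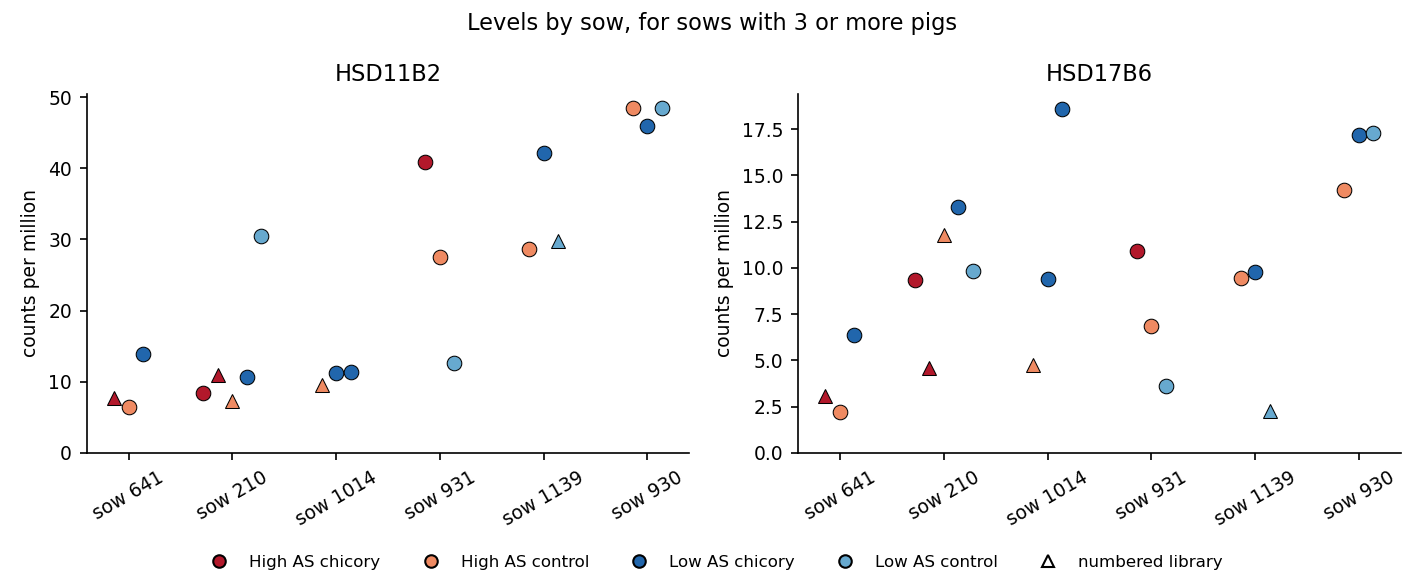
Levels of HSD11B2 and HSD17B6 in CPM for the 6 sows with 3 or more pigs, ordered by the median of HSD11B2; one point per pig, coloured by AS group and diet, triangles for numbered libraries. All pigs of sow 930 lie between 46.0 and 48.4 CPM of HSD11B2, and all pigs of sow 1014 between 9.53 and 11.4 CPM.

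Correlation across pigs with INSL3, made by Leydig cells, and with PRM1, made by spermatids, was computed to look for a likely cell source. The permutations behind all correlation p treat pigs of 1 sow as independent. Sow was held in none of them, so these p can be too small, above all for genes that differ between sows such as HSD11B2. In the 24 plain libraries HSD11B1 had r = 0.58 with INSL3 (rho = 0.54, permutation p = 0.00272, adjusted p = 0.0721 over all genes) and 0.47 without the 2 pigs farthest in INSL3. HSD11B2 had r = 0.57 (rho = 0.56, permutation p = 0.00367, adjusted p = 0.0812) and 0.50 without the 2 farthest. These r stood at percentiles 96.6 and 96.3 of all genes, but neither gene passed the threshold, which 2.55% of 14445 genes passed with positive r and 0.249% with negative r. Without Low AS chicory replicate 1, HSD11B1 passed with r = 0.62 (permutation p = 0.00185, adjusted p = 0.0426). HSD17B8 (r = 0.42), HSD17B4 (r = 0.41) and HSD17B6 (r = 0.33) had adjusted p between 0.247 and 0.374, and HSD17B11 had r = −0.28.

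The pooled value of HSD11B2 compares its bands as well as pigs within them. The bands were cut on HSD11B2 itself, which narrows its range, so r within a band cannot test the pooled relation. Within the plain libraries of its high band r with INSL3 was 0.45 (n = 10), and within those of its low band −0.28 (n = 14). Pigs of the high band averaged 10.49 ± 0.47 log2 CPM of INSL3 and those of the low band 9.47 ± 0.74 (SD). In the 8 numbered libraries HSD11B2 had r = 0.50 and HSD11B1 −0.14 with INSL3 (exact permutation p = 0.192 and 0.704), and 0% of 14456 genes passed.

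With PRM1, HSD17B11 passed and the other 5 members did not, at r = 0.81 (permutation p = 0.00046, adjusted p = 0.00305), as 23.3% of genes did with positive r and 18.4% with negative r. That value rests on few pigs: rho was 0.28 (adjusted p = 0.352), r was 0.30 without the 2 pigs farthest in PRM1, and r was 0.46 (adjusted p = 0.0954) without Low AS chicory replicate 1. HSD17B4 went the other way, with r = −0.15 over 24 pigs but rho = −0.52 (adjusted p = 0.0581), and r = −0.75 (adjusted p = 0.00239) without Low AS chicory replicate 1. HSD17B6 had r = −0.46 (adjusted p = 0.0691) with rho = −0.57 (adjusted p = 0.0324) and −0.54 (adjusted p = 0.0455) without that library. The r of HSD17B8 was 0.12, that of HSD11B1 0.13 and that of HSD11B2 −0.37. None of the 6 passed in the numbered libraries, where r lay between −0.39 and 0.22.

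**Figure D4:**
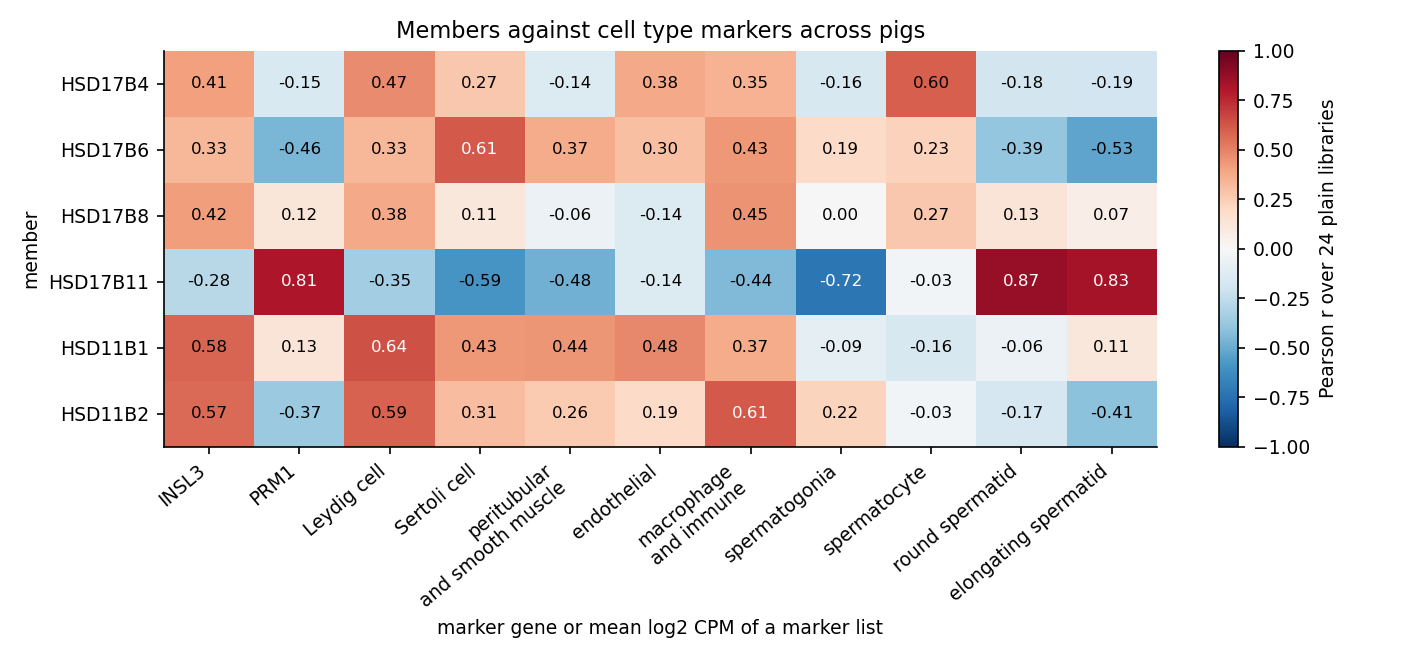
Pearson r of each member's log2 CPM with INSL3, PRM1 and the mean log2 CPM of 9 marker lists over the 24 plain libraries (colour from −1 to 1, value in each cell). HSD17B11 stands out with 0.87 for round and 0.83 for elongating spermatids, and HSD11B1 has 0.64 and HSD11B2 0.59 for Leydig cells.

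Lists of markers rest on more genes than 1 marker does, but their p were adjusted over 108 tests and not over all genes. Adjusted p of lists and of single markers are therefore not on the same scale. HSD11B2 had a permutation p of 0.00215 with Leydig cell markers and of 0.00367 with INSL3. Adjusted over the 24 pairs, the permutation test gave HSD11B1 and HSD11B2 an adjusted p of 0.0294 each with INSL3. Over 54 relations of the 6 members with 9 marker lists in plain libraries, 7 positive and 1 negative passed after adjustment over 108 tests, and 0 of 54 passed in the numbered libraries by the exact permutation test, with 4 at an unadjusted p under 0.05. Among all genes the 7 positive r stood at percentiles 90.3 (HSD17B6 with Sertoli markers) to 99.5 (HSD11B2 with macrophage and immune markers). HSD17B11 stood at 93.6 with elongating spermatid markers, and its negative r with Sertoli markers at 9.2. Many other genes thus had r as strong with the Sertoli list, and the share of all genes called was not computed. HSD17B11 followed the 8 measured round spermatid markers, with r = 0.87 (rho = 0.72, permutation p = 1e-05, the smallest these permutations can give, adjusted p = 0.00108, adjusted p of rho = 0.0081) and 0.74 without Low AS chicory replicate 1. It also had r = 0.83 with elongating spermatid markers (0.56 without that library) and −0.59 with Sertoli cell markers (adjusted p = 0.0265). In the numbered libraries HSD17B11 had r = 0.37 with round spermatid markers (n = 8).

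HSD11B1 and HSD11B2 followed the 9 measured Leydig cell markers, which include INSL3, with r = 0.64 (rho = 0.62, adjusted p = 0.0202) for HSD11B1 and r = 0.59 (rho = 0.55, adjusted p = 0.029, adjusted p of rho = 0.089) for HSD11B2. Within the bands of HSD11B2, r with Leydig markers was 0.59 in the high band (n = 10) and −0.22 in the low band (n = 14). As with INSL3, r within bands cut on HSD11B2 itself cannot test a pooled relation. HSD11B2 also had r = 0.61 with 4 macrophage and immune markers (adjusted p = 0.0265), and 0.63 in its high band and 0.05 in its low band. HSD11B1 had r = −0.10 with Leydig cell markers in the numbered libraries, opposite in sign to the plain ones, and HSD11B2 had 0.47 there. HSD17B6 followed Sertoli cell markers in plain libraries (r = 0.61, rho = 0.65, adjusted p = 0.0265) and had r = 0.86 with them in numbered ones (n = 8), or 0.46 without the 2 farthest pigs there. HSD17B4 had r = 0.60 with spermatocyte markers (rho = 0.54, adjusted p = 0.0265) and 0.67 in numbered libraries, or −0.18 without the 2 farthest pigs there. HSD17B8 passed with no list. By rho 4 of these 8 relations passed (HSD17B11 with round spermatid and Sertoli markers, HSD17B6 with Sertoli markers, HSD11B1 with Leydig markers), and the other 4 had an adjusted p of 0.089. A further relation passed by rho only, that of HSD17B6 with elongating spermatid markers (rho = −0.73, permutation, adjusted p of rho = 0.0081). Its r was −0.53 (adjusted p = 0.13) in plain libraries, −0.64 without Low AS chicory replicate 1 and 0.06 in numbered libraries. An r with a marker list in whole testis does not place an RNA in a cell type.

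**Figure D5:**
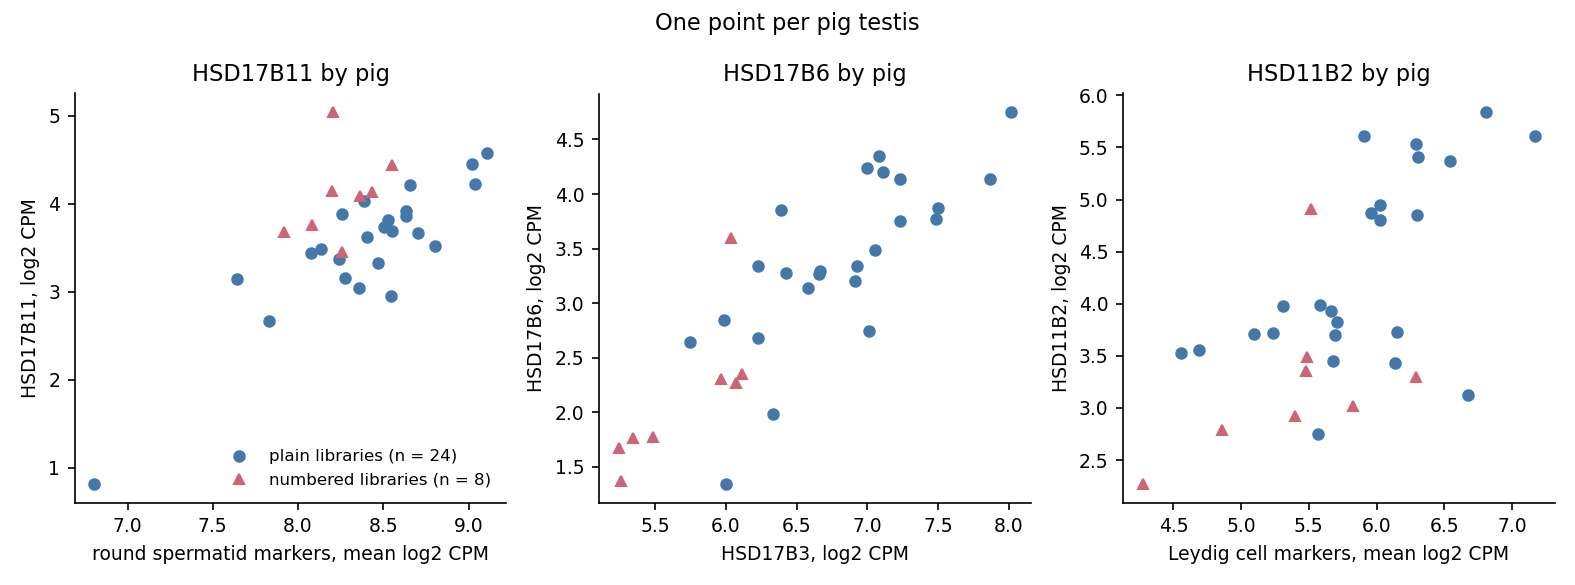
Relations of 3 members across pigs on log2 CPM axes, one point per pig, circles for 24 plain and triangles for 8 numbered libraries. HSD17B11 is higher where round spermatid markers are higher (r = 0.87 in plain libraries, with Low AS chicory replicate 1 at the far lower left), HSD17B6 has r = 0.75 with HSD17B3 in plain libraries, and HSD11B2 shows its high and low bands.

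Among each other and with steroid genes, 5 positive and 3 negative of 57 relations in plain libraries passed after adjustment over 114 tests. The share of all genes with such relations was not computed. In numbered libraries 0 of 57 passed by the exact permutation test, with 2 at an unadjusted p under 0.05. HSD17B6 followed HSD17B3, the testosterone-forming enzyme, with r = 0.75 (rho = 0.76, permutation p = 2e-05, adjusted p = 0.00228) in plain libraries, and had r = 0.76 (n = 8, exact permutation, adjusted p = 0.132) in numbered ones. It also followed HSD17B12, an enzyme of fatty acid elongation (r = 0.71, adjusted p = 0.00285). HSD17B8 followed HSD17B10, another mitochondrial enzyme of the family, with r = 0.71 (rho = 0.73, adjusted p = 0.00608) and 0.69 in numbered libraries.

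HSD17B11 had negative r with HSD17B12 (−0.61, adjusted p = 0.0265), HSD17B3 (−0.60, adjusted p = 0.0287) and HSD17B10 (−0.55, adjusted p = 0.0415). By rho none of the 3 passed, with adjusted p of 0.187 for HSD17B12, 0.0613 for HSD17B3 and 0.141 for HSD17B10. Without Low AS chicory replicate 1 their r was −0.45 for HSD17B12, −0.52 for HSD17B3 and −0.48 for HSD17B10. CYP17A1, which makes androgens from progestogens in Leydig cells, had r = 0.59 with HSD11B1 (adjusted p = 0.0353) and 0.60 with HSD11B2 (adjusted p = 0.035). Without the 2 pigs farthest in HSD11B1 its r with CYP17A1 was 0.44, and without the 2 farthest in HSD11B2 its r was 0.45. By rho both had an adjusted p of 0.0847. HSD11B1 and HSD11B2 had r = 0.44 with each other in plain libraries (adjusted p = 0.194) and −0.45 in numbered ones.

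Over all 32 pigs, with each library set centred, the genes most like each member were found among 9530 genes with a symbol. HSD17B11 was nearest to PRSS54 (r = 0.87), ARMC12 (0.87) and SS18 (0.86), and these r were 0.76 to 0.79 without the libraries of its lowest and highest levels. HSD17B4 was nearest to CRBN (0.83), CLTC (0.81) and VCP (0.80), and HSD11B2 to BLVRA (0.81), AEBP1 (0.75) and PSME2 (0.75). HSD17B8 was nearest to NUDT2 (0.77), NDUFB9 (0.75), a subunit of respiratory complex I, and ATP5IF1 (0.72), an inhibitor of the mitochondrial ATP synthase. HSD17B6 was nearest to ADGRB3 (0.75), HSD17B3 (0.75) and TMEM254 (0.73), and HSD11B1 to SUMF2 (0.65), CD93 (0.63) and CAT (0.62). These r were picked as the highest of many and carry no test.

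Genes of the surrounding pathways were read from the same fits. Of 15 tested relatives in the short-chain and hydroxysteroid dehydrogenase families, 0 passed for AS, androstenone or diet by edgeR. Those at an unadjusted p under 0.05 numbered 2 for AS, 5 for androstenone and 0 for diet. Over all genes the share under that p was 2.3% for AS, 5.06% for androstenone and 0.875% for diet. DHRS4, a retinal and carbonyl reductase, had the smallest p for androstenone at 0.36 (SE 0.11, p = 0.0033, adjusted p = 0.852). Of 7 glucocorticoid pathway genes 0 passed in those 3 comparisons, and NR3C1 for diet was the 1 value under an unadjusted p of 0.05. Of 13 retinoid genes 0 passed, and CRABP1 for AS (−0.43, SE 0.17, p = 0.0184) was the 1 value under that p.

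None of 15 genes of peroxisomal beta-oxidation, where HSD17B4 acts, passed, with 0 under an unadjusted p of 0.05 in each of the 3 comparisons. The 7 genes of mitochondrial fatty acid synthesis, where HSD17B8 acts, and the 5 of lipid droplets, where HSD17B11 sits, likewise had 0 called by edgeR and 0 under an unadjusted p of 0.05. In the androgen list of 10 genes SRD5A1, a steroid 5-alpha-reductase, rose with androstenone at a slope of 0.44 (SE 0.08, adjusted p = 0.0343) and was the 1 gene of these lists called. That call held in 18 of 31 fits that left out 1 pig and in 8 of 19 alternatives. Leaving out High AS chicory replicate 3 gave SRD5A1 a slope of 0.33 (adjusted p = 0.824), and leaving out Low AS chicory replicate 6 gave 0.41 (adjusted p = 0.179). Its adjusted p was 0.113 in limma voom, and with sow as a block its slope was 0.54 (adjusted p = 0.769). Among the members 4 of 6 AS estimates were above 0 (median 0.04, against 0.01 over all genes tested). Median slopes with androstenone were −0.02 over the 6 members and −0.01 over all genes tested, and median diet log2 folds were −0.28 over the members and 0.01 over all genes.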

How the data were processed

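Testis messenger RNA of 32 pigs was sequenced from stranded TruSeq libraries, per the labels' protocols. The deposited files hold whole-number read counts per Ensembl gene, not normalized by the authors. The submitters' processing notes name HTSeq 0.6.0, STAR, SAMtools 1.3.1, cutadapt 1.8.1 and Trimmomatic 0.33, without their order. Genome build, annotation release and strand setting are not given in the sources used here. Reads of antisense or overlapping genes therefore cannot be told apart. HSD11B1 overlaps 1 other gene, C9H1orf74, in the RefSeq pig table (assembly Sscrofa11.1), which lists neither HSD17B6 nor HSD17B11. Reads given to no gene (20.6% to 39.6% in no annotated feature) were left out.

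Tests used edgeR 4.0.16 in R 4.3.3: filterByExpr, TMM scaling, the quasi-likelihood F test and Benjamini-Hochberg adjustment over all genes at 0.05. The AS, diet and interaction fits used AS group, diet and library set in 31 pigs. Androstenone entered as log2 of mg/kg plus 0.5 in place of AS group. The sire breeding value was fitted with diet and library set to 32 pigs, carcass weight to 29 and sow as a set of terms to 31. SE is the log2 value over the square root of F, and an interval is 1.96 SE to each side. CPM are TMM-scaled. Correlations used log2 CPM with a prior count of 2, 100000 permutations for 24 libraries and all orders for 8. INSL3 and PRM1 calls were adjusted over all genes; adjustment over the 24 pairs, planned at first, is an alternative. The count test and the permutation test were checked on simulated data. DESeq2 1.42.0 and limma 3.58.1 served as alternatives. Genes named are all members, INSL3, PRM1, the 3 genes most like each member, the gene of smallest p in a list, and those of 7 other steroid genes whose r with a member passed. The bands of HSD11B2 and the 5 pigs at each end of androstenone were chosen after their values were seen. The members and lists were chosen with earlier results of these data known. Each sample is a separate pig, but pigs of 1 sow are related. Sow as a block is an alternative for the AS, androstenone and diet fits, and no correlation takes sow into account. The pig without an AS label entered only the breeding value fit and the correlations.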

Additional observations from a re-analysis of the deposited data

Results flagged for a closer look

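In 24 groups (6 genes in 4 groups) 2 values stood far from the rest of their group, and chance alone would mark about 1 in 20 groups. Low AS control replicate 5 had 190 CPM of HSD17B4, against 82.3 CPM in the next of 7 pigs. Without it the AS log2 fold of HSD17B4 was 0.19 and its diet log2 fold −0.16. High AS chicory replicate 4 had 40.9 CPM of HSD11B2, against 15.5 CPM in the next of 7 pigs. Without it the androstenone slope of HSD11B2 was −0.39 and its diet log2 fold −0.47. This pig came from sow 931, which had another pig in the high band of HSD11B2.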

How the results depend on the processing

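No member was called for AS, androstenone or diet under any of 15, 19 and 15 alternatives or in the fits without 1 pig each. Genes called for androstenone (3) were 7 in DESeq2 and 9 without a filter. They were 0 without the library set term, with the index set, in numbered libraries, with carcass weight, with sow as a block, on ranks and without pigs at 0 mg/kg. Leaving out 1 pig gave 1 (lowest, without High AS chicory replicate 3 or Low AS chicory replicate 6) to 4. The 1 gene called for diet was 0 in limma voom, with a minimum of 1 CPM, without the library set term, in plain or numbered libraries alone and without lane 7, and 0 to 1 with 1 pig left out. Sow differences called 1 member, HSD11B2, in limma voom and without the library set term. INSL3 and PRM1 pairs called (1, HSD17B11 with PRM1) were 0 in numbered libraries and 3 when adjusted over the 24 pairs. Those 3 were HSD17B11 with PRM1, HSD11B1 with INSL3 and HSD11B2 with INSL3, all in plain libraries. Without both libraries that stood apart (those of High AS control replicate 3 and Low AS chicory replicate 1) 3 pairs were called after adjustment over all genes. They were HSD17B4 and HSD17B6 with PRM1 and HSD11B1 with INSL3, while HSD17B11 with PRM1 was lost (permutation, adjusted p = 0.0954). Only the library of Low AS chicory replicate 1 belongs to the plain set. By rho the 1 pair called was HSD17B6 with PRM1, and without the 2 farthest pigs it was HSD17B4 with PRM1.

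Estimates that were not called changed sign as follows, and the cause was not tested. For AS, HSD17B4 was −0.13 without the library set term, −0.07 in plain libraries and −0.002 with INSL3 and PRM1 added. HSD17B6 was 0.06 with the index set, 0.90 in numbered libraries, 0.17 with carcass weight and 0.01 with sow as a block. HSD17B8 was −0.06 without the library set term, −0.01 with the index set, −0.04 with carcass weight, −0.12 with INSL3 and PRM1 added and −0.01 without both libraries that stood apart. HSD11B1 was −0.01 with INSL3 and PRM1 added. With 1 pig left out, HSD17B6 ranged from −0.20 to 0.03, HSD17B8 from −0.03 to 0.07 and HSD11B2 from −0.36 to 0.13.

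For androstenone, HSD17B4 was 0.08 with the index set, 0.09 with sow as a block and 0.03 without the 2 highest concentrations. HSD17B6 was 0.34 in numbered libraries. HSD17B8 was −0.03 without the library set term, −0.02 with the index set and −0.06 with INSL3 and PRM1 added. HSD11B1 was −0.01 with INSL3 and PRM1 added and on untransformed concentration, and −0.02 without both libraries that stood apart and without pigs at 0 mg/kg. With 1 pig left out, slopes ranged from −0.08 to 0.01 for HSD17B4, −0.03 to 0.06 for HSD17B8 and −0.01 to 0.10 for HSD11B1. For diet, sow as a block gave 0.26 for HSD17B6 and 0.21 for HSD11B2, and numbered libraries gave −0.10 for HSD17B8. HSD11B1 was −0.01 with the index set, −0.25 in numbered libraries and −0.03 with carcass weight, and ranged from −0.02 to 0.09 with 1 pig left out.

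In numbered libraries r with INSL3 was −0.04 for HSD17B6 and −0.14 for HSD11B1, and r with PRM1 was −0.28 for HSD11B1 and 0.05 for HSD11B2. HSD11B1 also had r with PRM1 of −0.05 without the 2 farthest pigs and −0.12 without both libraries that stood apart. No paired analysis was possible by replicate number because the numbers follow accession order. The pairing that the labels do give is the sow, with 7 sows having pigs in both AS groups, and it is the fit with sow as a block. Reads a library were 9 to 125 for HSD17B6 and 3 to 319 for HSD17B11, and the part of depth in their errors was not tested.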

Other observations

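The chicory pig without an AS label had 72.4 CPM of HSD17B4, 8.88 CPM of HSD17B6, 26.9 CPM of HSD17B8, 14.4 CPM of HSD17B11, 17.2 CPM of HSD11B1 and 15.5 CPM of HSD11B2. It came from sow 773, whose other pig, High AS control replicate 5, had the highest HSD11B2 of all pigs at 56.9 CPM and the highest HSD17B6 at 26.6 CPM. These 2 pigs had plain libraries.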
